A study of Mus musculus with 63 samples.

Results

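The 9 desmosome genes of mouse skin keratinocytes, *Dsg1a*, *Dsg2*, *Dsg3*, *Dsc2*, *Dsc3*, *Dsp*, *Jup*, *Pkp1* and *Perp*, were followed through cells with and without the EGF receptor (EGFR). They were chosen by symbol, as all probes that the platform table gives to these names alone, which makes 9 genes and 12 probes of the 14541 genes and 28049 probes on the arrays. *Dsg2* had 3 probes, *Jup* 2 and each other gene 1. Every probe was measured on all 63 arrays except *Jup* probe 2, which lacked a value on 1 array (WT ras AG1478 replicate 3).

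The study compared keratinocytes of newborn CD-1 mice that were wild type (WT) or knock-out (KO) for EGFR. Each array set the RNA of 1 keratinocyte sample against Universal Mouse Reference RNA, a pool from 11 mouse cell lines, so a value is a log2 ratio of sample over reference. Cells were transduced with v-rasHa, the oncogene of Harvey sarcoma virus, by retrovirus from Psi-2 producer cells and kept for 4 days (called ras), or were mock controls. The 3 small molecules that block the kinase of EGFR (PD153035, AG1478 and erlotinib) were each added to some cultures, for 2 h and at 1 µM. The WT groups were mock (n = 4), mock with AG1478, erlotinib or PD153035 (n = 5 each), ras (n = 5) and ras with AG1478, erlotinib or PD153035 (n = 5 each). The KO groups were mock (n = 3), ras (n = 5), ras with AG1478 (n = 6), ras with erlotinib (n = 4) and ras with PD153035 (n = 5). The knock-out was in the whole animal, so no Cre or promoter restricted it. The design text calls the repeats biological, but no label ties them to separate litters or cultures. The p-values therefore measure the spread between these samples, which may in part be technical.

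Desmosomes are spot-like junctions that tie the keratin filaments of neighbouring epithelial cells together, and they carry much of the mechanical strength of the epidermis. Desmogleins and desmocollins are cadherins that bridge the gap between cells, the armadillo proteins plakoglobin and the plakophilins bind their tails, and desmoplakin links this plaque to keratin. In the epidermis the cadherin isoforms change from the basal to the upper layers, and EGFR signalling is known to loosen desmosomes.

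The ratios of 12 arrays were turned so that every array reads sample over reference. For 2 arrays of KO ras with AG1478 the values went against the dye label: replicate 3 is labelled forward and read as reversed, and replicate 4 the other way round. As turned, keratinocyte markers lay above genes of the reference pool on 63 of 63 arrays. Group means of the keratinocyte marker list ran from 2.99 to 4.91, those of the melanocyte list from 1.05 to 2.22, and those of the fibroblast, leukocyte and endothelial lists were below 0 in every group. Arrays differed in spread, with a standard deviation of 0.753 to 1.75 over all probes and the lowest value in KO mock replicate 2. Neither *Egfr* probe was called lower in KO cells. The first gave 0.22 to 2.77 in KO and 0.43 to 3.60 in WT samples, the second −0.27 to 1.71 and −0.29 to 3.32. The labels do not say whether these probes lie in the part that the knock-out removes. Experiment numbers fall into 8 runs. KO mock filled run 4 alone, while WT mock and WT ras lay in runs 1 and 2 and KO ras in runs 3, 5 and 6, so genotype and run cannot be told apart there. Between genotypes, only the inhibitor-treated ras groups share runs. No run is shared by KO ras and KO mock, or by ras and mock WT cells under the same inhibitor. Inhibitor-treated and untreated ras cells share none either, except KO ras with erlotinib. Nor do ras cells with erlotinib share a run with those given another inhibitor in the same genotype. In these comparisons the factor compared and run cannot be told apart. In bulk RNA, fewer cells of a type and less RNA per cell cannot be told apart.

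All 9 genes were read above the reference in most samples. *Dsg3*, *Dsc3*, *Dsp*, *Jup* probe 1, *Pkp1* and *Perp* exceeded 0 in 62 of 62 samples, *Dsc2* in 56 and *Dsg2* probe 2 in 54 of 62. The group means differed for 3 of the 12 probes in an F test over the 13 groups (limma with Benjamini-Hochberg adjustment), *Jup* probe 1 (adjusted p = 0.000741), *Dsg1a* (0.0359) and *Dsc2* (0.0472). Of all probes tested, 25.1% passed this test, so the share among the members was near the background. Without the 2 arrays of disputed direction only *Jup* probe 1 passed it (0.00126), and without any 1 of WT ras replicates 1 and 2, KO ras erlotinib replicates 3 and 4 or WT ras AG1478 replicate 1 the count was also 1, while without WT ras replicate 4 or KO ras replicate 5 it was 5. The range of the group means was 3.86 for *Dsc2*, from 0.85 in KO mock to 4.71 in WT ras erlotinib, against a pooled SD within groups of 1.59. It was 3.29 for *Dsg1a*, from 2.15 in WT ras AG1478 to 5.45 in KO ras erlotinib, with a pooled SD of 1.55. For *Jup* probe 1 the range was 2.27 and the pooled SD 0.62. *Pkp1* ranged over 3.09 with a pooled SD of 1.99, and *Dsg3*, *Dsc3* and *Perp* over 2.13, 2.34 and 1.45 with pooled SDs of 1.46, 1.45 and 0.99.

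**Figure D1:**
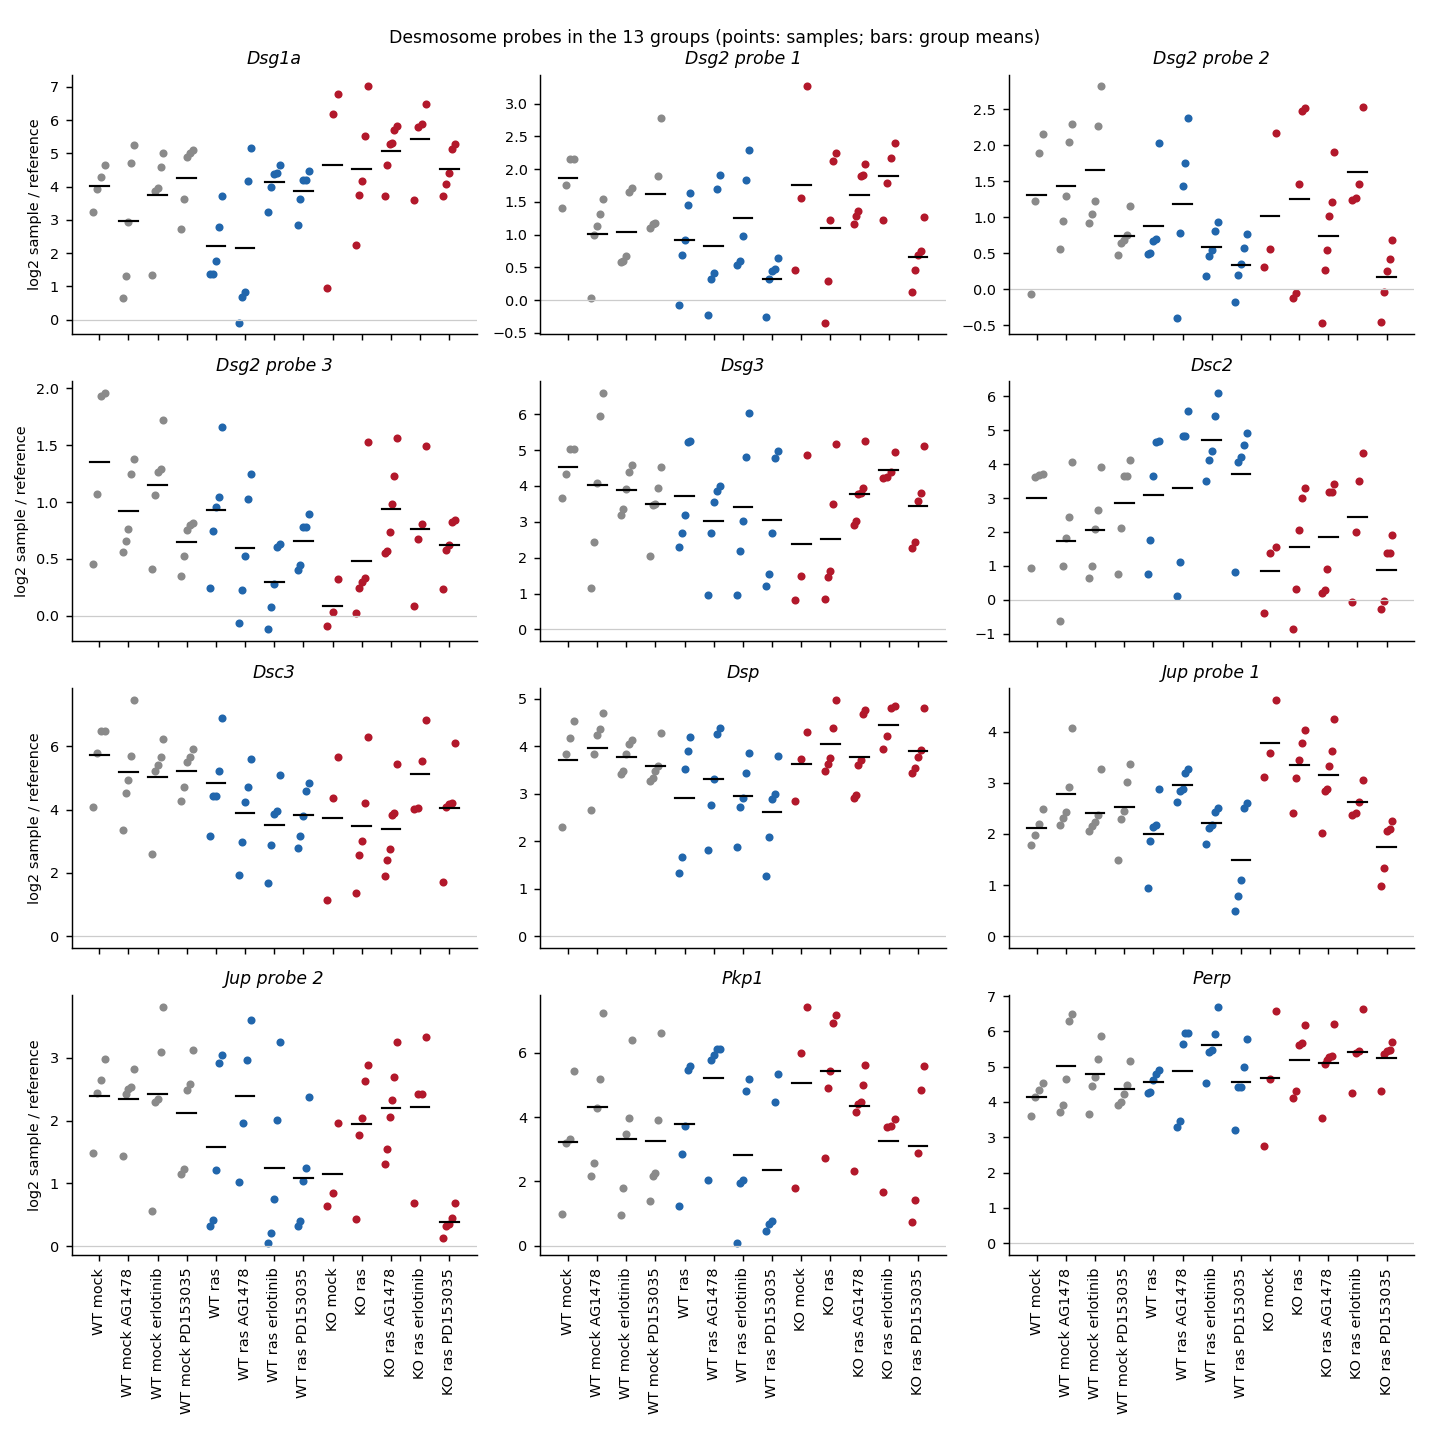
Log2 ratio of sample over reference (vertical axis) for the 12 desmosome probes in the 13 groups (horizontal axis). Points are samples, grey for WT mock, blue for WT ras and red for KO groups, and bars are group means; *Dsc2* sits lowest in KO mock (0.85) and KO ras PD153035 (0.87), and *Jup* probe 1 lowest in WT ras PD153035 (1.50).

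Averaged over the 5 kinds of cells made in both genotypes (mock, ras and ras with each inhibitor), the desmocollin *Dsc2* was lower in KO cells, and *Dsg1a*, *Dsp* and *Jup* probe 1 were higher. This average was added after the single comparisons had been seen. By limma with Benjamini-Hochberg adjustment it called 4 of the 12 probes, against 8.93% of the 27320 probes tested, 1141 higher and 1299 lower. The 4 calls stood whichever of the 62 samples was left out. They did not all stand with the dye labels of the 2 disputed arrays taken as written, where *Dsc2* alone was called and the differences were 0.87 for *Dsg1a* (limma adjusted p = 0.44), 0.33 for *Dsp* (0.711) and 0.38 for *Jup* probe 1 (0.564); without these arrays all 4 were called. Run as a random block kept 3 of the 4 calls (3.99% of all probes called) and lost *Dsc2*. Over the 4 ras kinds alone 3 of the 4 stood (8.22% of all probes called). *Jup* probe 1 was lost there (0.55, limma adjusted p = 0.0717). The other 8 probes were not called in the average over the 5 kinds, with differences from −0.40 (*Dsc3*) to 0.76 (*Pkp1*). One of them, *Dsg2* probe 1 (0.37, 0.297), was called over the 3 inhibitor-treated kinds with run as a fixed block, at 0.82 (95% interval 0.30 to 1.35; limma adjusted p = 0.0377; 9.08% of all probes called), and not without the block (0.59, 0.177).

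*Dsc2* encodes desmocollin 2, a cadherin of desmosomes in simple and stratified epithelia. In KO mock its values were 1.55, −0.40 and 1.39, against 3.72, 0.95, 3.61 and 3.68 in WT mock. In KO ras they were 0.32, −0.87, 2.05, 3.01 and 3.30, against 4.64, 3.64, 1.76, 0.77 and 4.68 in WT ras. With PD153035 the KO ras values were 1.37, −0.27, 1.90, 1.39 and −0.04, against 4.21, 4.06, 0.84, 4.91 and 4.56 in WT ras. In these 3 kinds of cells each WT group held 1 or more low samples next to high ones, and the genotypes overlapped. With erlotinib the KO ras values were −0.05, 4.31, 3.49 and 2.01, against 4.11, 5.42, 6.09, 4.39 and 3.51 in WT ras. With AG1478 KO ras samples ran from 0.19 to 3.43 around a median of 2.05, and WT ras samples were 4.81, 4.83, 0.10, 1.12 and 5.56. Only 1 of 23 KO samples lay above the median of the 24 WT samples, and the mean was lower in KO cells in all 5 kinds. The mean difference fell by 2.04 ± 0.45 on the log2 scale (SE; 95% interval −2.95 to −1.13; limma adjusted p = 0.00182). With run as a random block it was −1.73 (limma adjusted p = 0.0522). Over the 3 inhibitor-treated kinds alone it was −2.18 (0.0105), and −1.29 with run as a fixed block (0.131). Within run 8 the *Dsc2* difference with AG1478 had the other sign, 1.26, from 6 KO samples and the 2 low WT samples.

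*Dsg1a* encodes a desmoglein 1, the form of the upper epidermal layers and the target of exfoliative toxin and of pemphigus foliaceus antibodies. Its KO mock values were 6.18, 0.95 and 6.79 and its WT mock values 3.22, 4.66, 4.30 and 3.94. In KO ras it gave 3.74, 2.23, 4.18, 5.54 and 7.02, against 1.38, 1.38, 1.77, 2.79 and 3.71 in WT ras. With AG1478 the KO ras samples ran from 3.72 to 5.82 with a median of 5.29, while WT ras gave 0.84, 4.18, 0.69, −0.09 and 5.15. The WT ras AG1478 samples split into 3 near 0 and 2 as high as KO samples, so these groups overlapped. With erlotinib KO ras gave 3.61, 5.90, 6.48 and 5.80 and WT ras 3.25, 3.99, 4.64, 4.40 and 4.41. With PD153035 KO ras gave 5.13, 4.41, 5.28, 3.72 and 4.09 and WT ras 3.63, 4.19, 4.21, 2.85 and 4.48. The mean was higher in KO cells in all 5 kinds, by 1.55 ± 0.40 on average (95% interval 0.74 to 2.36; limma adjusted p = 0.00791). Run as a random block gave 1.73 (limma adjusted p = 0.0239), and run as a fixed block over the 3 inhibitor-treated kinds 2.20 (0.00245). All 10 melanocyte markers had positive KO minus WT averages, 3 of them called (*Dct*, *Pmel* and *Mitf*), and all 20 keratinocyte markers did too, 7 of them called. Over all probes 49% of these averages were above 0 and 8.93% were called. The part of these markers in the *Dsg1a* difference was not tested.

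*Dsp*, desmoplakin, links the plaque to keratin filaments. In KO ras its values were 3.63, 3.75, 3.47, 4.97 and 4.39, against 1.66, 1.32, 3.90, 4.19 and 3.52 in WT ras. With erlotinib they were 3.95, 4.80, 4.21 and 4.85 against 1.87, 2.73, 2.92, 3.86 and 3.43. The erlotinib groups did not overlap, while the ras groups did. With PD153035 the KO values were 4.81, 3.78, 3.43, 3.53 and 3.92 and the WT values 1.27, 3.00, 2.89, 2.08 and 3.80, and 20 of 23 KO samples lay above the WT median over all 5 kinds. The *Dsp* average was 0.86 ± 0.23 higher in KO cells (95% interval 0.39 to 1.33; limma adjusted p = 0.0119), although KO mock (mean 3.63) was no higher than WT mock (3.71). With run as a fixed block over the 3 inhibitor-treated kinds it was 1.46 (0.000724).

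*Jup* encodes plakoglobin, an armadillo protein shared by desmosomes and adherens junctions. *Jup* probe 1 gave 3.58, 3.11 and 4.62 in KO mock and 2.19, 2.50, 1.98 and 1.79 in WT mock, without overlap. In ras cells it gave 3.78, 4.03, 3.44, 3.09 and 2.41 in KO and 0.94, 1.87, 2.88, 2.18 and 2.13 in WT. The KO samples were the higher ones in both kinds of cells without inhibitor, with KO ras replicate 5 inside the WT range. The average over the 5 kinds was 0.77 ± 0.18 higher in KO cells (95% interval 0.40 to 1.14; limma adjusted p = 0.00393) and 0.77 with run as a random block (0.0408). Over the 3 inhibitor-treated kinds it was 0.29 (0.52), so the call of *Jup* probe 1 rests on mock and ras cells without inhibitor, where genotype and run cannot be told apart. In the average over the 5 kinds *Jup* probe 2 did not move with probe 1, at −0.14 (95% interval −0.69 to 0.40). Across the 13 group means the 2 *Jup* probes correlated with r = 0.36, and across samples with r = 0.34.

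**Figure D2:**
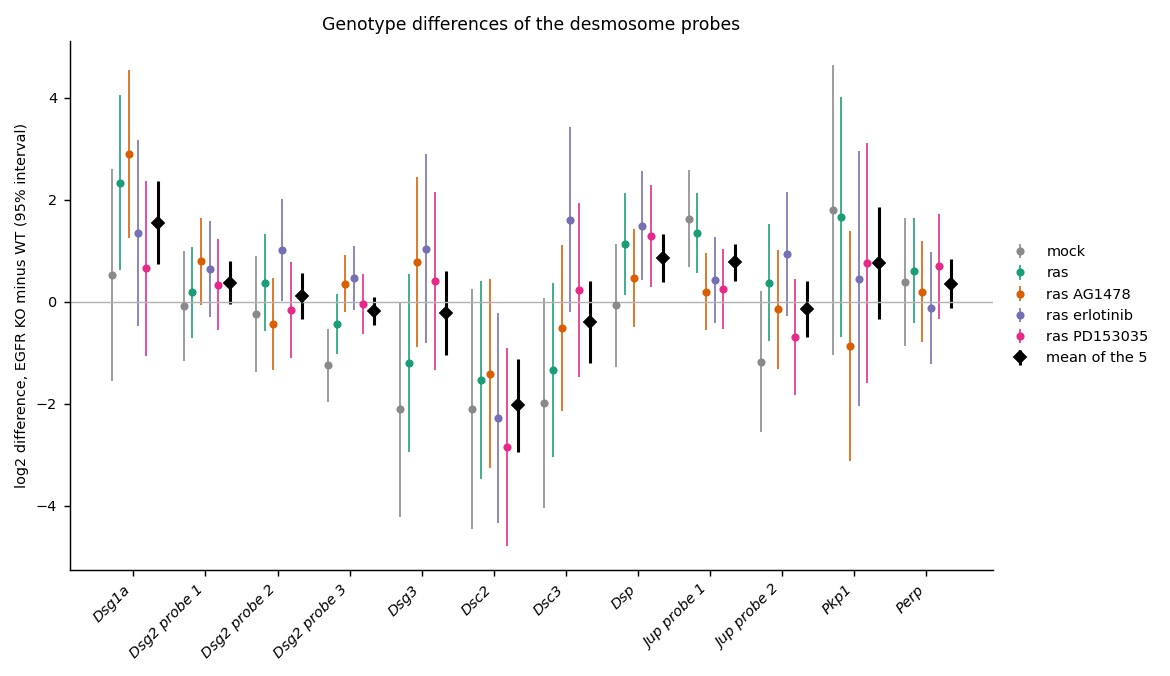
Log2 difference of EGFR KO minus WT (vertical axis, with 95% intervals) for the 12 probes (horizontal axis) in mock cells, ras cells and ras cells with each inhibitor (coloured circles) and averaged over the 5 (black diamonds). The intervals of the averages exclude 0 for *Dsg1a* (1.55), *Dsc2* (−2.04), *Dsp* (0.86) and *Jup* probe 1 (0.77).

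The promoters of *Dsp* and *Jup* are shown because *Dsp* and *Jup* probe 1 were called higher on average in KO cells (*Jup* probe 2 was not) and both genes are members with an entry in the RefSeq promoter table (GRCm38.p6). Each stretch ends 1 base before the annotated gene, at chr13:38151044-38151293 on the plus strand for *Dsp* and chr11:100397840-100398040 on the minus strand for *Jup*. Capitals mark GC boxes (GGGCGG or its reverse complement), the classical binding letters of Sp1.
Dsp: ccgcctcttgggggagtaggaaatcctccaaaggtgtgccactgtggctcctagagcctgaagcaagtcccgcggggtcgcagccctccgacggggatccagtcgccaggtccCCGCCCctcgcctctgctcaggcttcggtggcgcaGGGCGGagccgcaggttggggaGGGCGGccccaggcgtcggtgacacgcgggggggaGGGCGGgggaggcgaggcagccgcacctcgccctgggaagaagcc
Jup: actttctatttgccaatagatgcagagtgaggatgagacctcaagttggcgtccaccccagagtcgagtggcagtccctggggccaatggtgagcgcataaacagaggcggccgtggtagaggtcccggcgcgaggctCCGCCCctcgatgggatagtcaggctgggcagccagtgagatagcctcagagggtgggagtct
The *Dsp* stretch of 250 bases held 4 GC boxes and the *Jup* stretch of 201 bases held 1, searching both strands. At the same length, 32.7% and 24.8% of the 32851 promoter windows in the table hold this motif. Neither stretch held an AP-1 site (TGANTCA, in 6.75% and 5.59% of windows), the Snail-type E-box CACCTG (17.2% and 14.5%) or the TATA box TATAAA (12.4% and 9.18%). These are letter matches and say nothing of binding.

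Each kind of cell on its own gave few genotype calls. In mock cells 0 of 12 probes were called (background 1.11% of all probes; 3 members at unadjusted p under 0.05, beside 17.7% of all probes), and 2 were called with array values scaled to a common spread. The closest were *Dsg2* probe 3, at −1.25 ± 0.35 (limma adjusted p = 0.0575), and *Jup* probe 1, at 1.63 ± 0.48 (0.0665). Neither of these pairs of groups overlapped, and the share of all probes without overlap was not counted in this or any other comparison. *Dsg3* and *Dsc3* had estimates of −2.11 ± 1.05 (0.282) and −1.99 ± 1.03 (0.299), *Dsc2* −2.11 ± 1.17 (0.334), *Pkp1* 1.80 ± 1.42 (0.517), *Dsg1a* 0.52 ± 1.04 (0.834), *Perp* 0.39 ± 0.62 (0.787), *Dsg2* probe 1 −0.09 ± 0.54 (0.949) and *Dsp* −0.08 ± 0.60 (0.965), all by limma. The 3 KO mock samples were far apart. For *Pkp1* they were 6.00, 1.78 and 7.42, and replicate 2, the low one, was also low for *Dsg1a* and *Dsc2* and came from the array of narrowest spread.

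In ras cells 0 of 12 probes were called between genotypes (background 1.92%; 3 members at unadjusted p under 0.05, beside 16.8% of all probes). The estimates were 1.35 ± 0.39 for *Jup* probe 1 (limma adjusted p = 0.0543), 2.33 ± 0.86 for *Dsg1a* (0.137), 1.12 ± 0.50 for *Dsp* (0.235), 1.65 ± 1.17 for *Pkp1* (0.496) and 0.61 ± 0.52 for *Perp* (0.583). The cadherins *Dsc2*, *Dsc3* and *Dsg3* had negative estimates, −1.54 ± 0.97 (0.43), −1.33 ± 0.85 (0.436) and −1.21 ± 0.87 (0.503), and *Dsg2* probe 1 stood at 0.18 ± 0.44 (0.88). With AG1478 1 of 12 was called (background 2.22%), *Dsg1a* at 2.90 ± 0.82 (limma adjusted p = 0.0429). This call rests on the sign of the disputed arrays: −0.43 (0.877) with the sign taken from the label and 2.84 (0.121) without these arrays. It was also lost without any 1 of WT ras AG1478 replicates 1, 3 and 4 or KO ras AG1478 replicates 2 to 6 (largest adjusted p 0.15). With run as a fixed block it was 4.51 (0.00719), within run 8 4.78 from 6 KO and 2 WT samples, and over all alternatives the adjusted p ran from 0.00249 to 0.877. With erlotinib 0 of 12 were called (background 0.945%), and with PD153035 0 of 12 (background 1.38%). The erlotinib groups of *Dsp* and *Dsg2* probe 2 did not overlap, and the share of all probes without overlap was not counted. The number of members with an unadjusted p under 0.05 was 1 with AG1478, 3 with erlotinib and 2 with PD153035, beside 15.4%, 15.6% and 10.4% of all probes.

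Transduction with v-rasHa moved no member past the threshold. In WT cells 0 of 12 probes were called (background 0.183%), 9 of the 12 estimates were negative and 1 had an unadjusted p under 0.05 (6.68% of all probes), *Dsg2* probe 1 at −0.95 ± 0.47 (limma adjusted p = 0.746). The median over the members was −0.62, beside 0.04 over all probes. The gene estimates were −1.77 ± 0.91 for *Dsg1a* (0.76), −0.88 ± 0.90 for *Dsc3*, −0.80 ± 0.92 for *Dsg3*, −0.79 ± 0.53 for *Dsp*, 0.09 ± 1.03 for *Dsc2*, −0.10 ± 0.42 for *Jup* probe 1, 0.56 ± 1.24 for *Pkp1* and 0.49 ± 0.55 for *Perp*. In KO cells 0 of 12 were called (background 0.539%; 0 at unadjusted p under 0.05, beside 6.81% of all probes), with estimates between −0.67 (*Dsg2* probe 1) and 0.71 (*Perp*). *Dsg1a* was at 0.05 ± 0.99, *Dsg3* at 0.10 ± 1.01, *Dsc2* at 0.66 ± 1.12, *Dsc3* at −0.23 ± 0.99, *Dsp* at 0.41 ± 0.58, *Jup* probe 1 at −0.37 ± 0.46 and *Pkp1* at 0.41 ± 1.36. The difference between these ras effects called 0 of 12 (background 0.0108%; 0 at unadjusted p under 0.05, beside 5.9% of all probes). The 95% intervals reached 1.16 to either side of the estimate for the median member in WT and 1.26 in KO cells.

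When ras and mock cells that had received the same inhibitor were compared in WT, 0 of 12 members were called with AG1478 (background 5.17%), 0 with erlotinib (5.23%) and 0 with PD153035 (1.19%). At an unadjusted p under 0.05 there were 0, 4 and 2 members, beside 19.5%, 19.5% and 11.7% of all probes. These ras and mock groups share no run, so ras and run cannot be told apart here.

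The inhibitors are anilinoquinazolines that compete with ATP in the EGFR kinase domain. In WT mock cells AG1478, erlotinib and PD153035 each called 0 of 12 probes, with a background of 0% for all 3 (0, 0 and 1 members at unadjusted p under 0.05, beside 6.47%, 3.17% and 3.41% of all probes). In WT ras cells AG1478 called 0 of 12 (background 1.94%), erlotinib 0 (3.4%) and PD153035 0 (0.66%), with 1, 3 and 0 members at unadjusted p under 0.05, beside 17.1%, 18.3% and 12.2% of all probes. Of the inhibitor comparisons in ras cells of both genotypes, only erlotinib in KO ras shares runs. In the others inhibitor and run cannot be told apart. In KO ras cells, knock-out for the inhibitors' intended target, AG1478 called 0 of 12 (background 0.225%), erlotinib 0 (0.0543%) and PD153035 1 (4.83%), with 0, 1 and 3 members at unadjusted p under 0.05, beside 14.1%, 11.8% and 22.3% of all probes.

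That call was *Jup* probe 1. KO ras with PD153035 gave 2.10, 0.98, 2.06, 1.33 and 2.25, against the 2.41 to 4.03 of KO ras without inhibitor. All 5 treated samples were below all 5 untreated ones. *Jup* probe 2 also had a lower mean with PD153035 (0.39, against 1.95 without inhibitor) and was not called. *Jup* probe 1 was lower by −1.61 ± 0.39 (limma adjusted p = 0.0137). With run as a random block the estimate was −1.46 (0.616), and these groups share no run. Without KO ras replicate 2 it was −1.45 (0.0566), without KO ras PD153035 replicate 2 −1.41 (0.0531), and over all alternatives the adjusted p ran from 8.97e-05 to 0.616. In WT ras, PD153035 samples were 0.78, 1.11, 2.50, 0.50 and 2.60, overlapping the untreated cells, and the test of a different PD153035 effect between genotypes gave −1.11 ± 0.56 (limma adjusted p = 0.499). Over the 3 inhibitors, 0 of 36 such tests on member probes were called (smallest adjusted p 0.267).

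*Pkp1*, plakophilin 1, which clusters desmosomal cadherins and recruits desmoplakin, went with *Jup* probe 1. Group means of the 2 correlated with r = 0.86 (13 groups), sample values with r = 0.73 (62 samples) and deviations from group means with r = 0.73. These points share arrays and their spread. It was the closest of all pairs of member probes. *Jup* probe 2 reached r = 0.30 with *Pkp1* over group means and 0.40 over samples. *Pkp1* gave 4.84, 1.41, 2.88, 0.75 and 5.58 in KO ras with PD153035 and 6.92, 4.91, 7.18, 5.42 and 2.71 without. The groups overlapped, and the *Pkp1* difference was −2.34 ± 1.17 (limma adjusted p = 0.228).

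**Figure D3:**
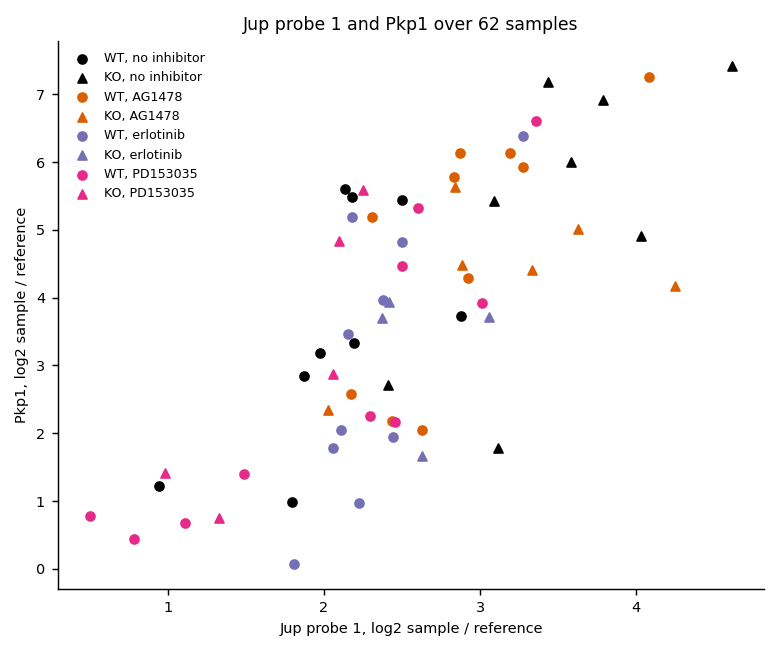
Log2 ratio of sample over reference of *Jup* probe 1 (horizontal axis) and *Pkp1* (vertical axis) in 62 samples, circles WT and triangles KO, coloured by inhibitor. The probes rise together (r = 0.73), and the PD153035 samples hold the lowest *Jup* value (0.50).

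Pairs of inhibitors were compared at the same dose and time in each kind of cell, 9 pairs in all. AG1478 and PD153035 share the dimethoxyquinazoline core and carry chlorine and bromine on the aniline ring, while erlotinib carries an ethynyl group there and longer ether chains on the quinazoline. In WT ras cells AG1478 minus PD153035 called 1 of 12 (background 1.29%). *Jup* probe 1 gave 2.87, 3.28, 2.63, 2.83 and 3.19 with AG1478, above every PD153035 sample, a difference of 1.46 ± 0.39 (95% interval 0.67 to 2.25; limma adjusted p = 0.0441). With run as a fixed block this was 1.30 (0.244), within run 8 1.23 from 2 and 5 samples, and without the disputed arrays 1.46 (0.0504). The call was lost without any 1 of AG1478 replicates 1, 2, 4 and 5 or PD153035 replicates 1, 2 and 4 (largest adjusted p 0.158), and over all alternatives the adjusted p ran from 0.000402 to 0.33. *Jup* probe 2 had means of 2.39 (n = 4) with AG1478 and 1.08 (n = 5) with PD153035 and was not called. *Pkp1* with AG1478 was 6.13, 5.92, 2.05, 5.78 and 6.13, against 0.45, 0.68, 4.46, 0.78 and 5.33 with PD153035. Replicate 3 of AG1478 and replicates 3 and 5 of PD153035 crossed, and the *Pkp1* difference was 2.86 ± 1.17 (0.181).

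In KO ras cells AG1478 minus PD153035 called 0 of 12 (background 0.745%; 3 at unadjusted p under 0.05, beside 9.77% of all probes), with *Jup* probe 1 at 1.41 ± 0.38 (95% interval 0.65 to 2.16; limma adjusted p = 0.0548) and *Jup* probe 2 at 1.82 ± 0.55 (0.105). *Jup* probe 2 gave 2.70, 2.05, 1.55, 2.32, 1.32 and 3.25 with AG1478 and 0.69, 0.13, 0.45, 0.33 and 0.35 with PD153035, without overlap. Both groups lay in run 8, where the means of *Jup* probe 1 differed by 1.42, and with run as a fixed block *Jup* probe 1 was called. Erlotinib minus PD153035 in KO ras called 0 of 12 (background 5.82%; 4 at unadjusted p under 0.05, beside 21.3% of all probes), although all 12 estimates were positive, with a median of 0.98 beside −0.02 over all probes. The smallest limma adjusted p of this pair was 0.0624. The arrays of KO ras with erlotinib had the widest spread of the 13 groups. Their mean median absolute deviation was 1.22, beside 0.96 for KO ras with PD153035. The groups of this pair share no run. The part of array spread and run in these estimates was not tested. AG1478 minus erlotinib called 0 of 12 in KO ras (background 0.243%) and 0 of 12 in WT ras (0.897%), and erlotinib minus PD153035 0 of 12 in WT ras (0.176%). These 3 pairs had 1, 2 and 2 members at unadjusted p under 0.05, beside 11.9%, 13.5% and 9.02% of all probes. In WT mock cells the 3 pairs called 0 of 12 each, with a background of 0% for each pair and 0 members at unadjusted p under 0.05, beside 1.14% to 3.1% of all probes. The 95% intervals reached 1.04 to 1.16 to either side for the median member in these 9 pairs, so the missing calls do not show that the compounds act alike.

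In the main fit, with no run block or array weights, only *Jup* probe 1 and *Dsg1a* were called in any of the 29 comparisons. *Dsg2*, *Dsg3*, *Dsc3* and *Perp* were called neither there nor in the main average over the 5 kinds. With array weights *Dsg2* probe 1 was called for ras in KO cells (limma adjusted p = 0.0144). *Dsg3*, the basal desmoglein and pemphigus vulgaris antigen, had group means from 2.39 in KO mock to 4.52 in WT mock, and *Dsc3*, its basal desmocollin counterpart, from 3.37 in KO ras AG1478 (3.89 without its 2 disputed arrays) to 5.71 in WT mock. *Dsg2*, the desmoglein of most epithelia, gave a different picture with each probe. Probe 1 was highest in KO ras erlotinib (1.89) and lowest in WT ras PD153035 (0.32), probe 2 highest in WT mock erlotinib (1.65) and lowest in KO ras PD153035 (0.18), and probe 3 highest in WT mock (1.35) and lowest in KO mock (0.09). Over the 13 group means the *Dsg2* probes correlated with r = 0.07 to 0.43, so no level of *Dsg2* is given for the gene. *Perp*, a membrane protein of desmosomes and a p63 target, had group means from 4.15 in WT mock to 5.61 in WT ras erlotinib. The ratios of the members also followed the spread of the arrays, with correlations between a probe and its array's median absolute deviation of 0.15 (*Jup* probe 1) to 0.69 (*Dsg3*) over 62 samples.

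The 2 arrays of disputed direction are KO ras AG1478 replicates 3 and 4. As turned, *Perp* was 5.18 and 6.22 on them, beside 3.54 to 5.31 in the other 4 samples. By the dye label these values would be −5.18 and −6.22, and the group's *Perp* mean would be 1.30 with an SD of 5.47 in place of 5.10 with an SD of 0.87. *Dsg1a* was 4.65 and 5.27 as turned, inside the 3.72 to 5.82 of the others, and its mean would change from 5.08 to 1.77 and its SD from 0.78 to 5.27. The same held for the other members as a shift toward 0 with a wide spread, up to an SD of 4.76 for *Pkp1*. Without the arrays the group mean went from 5.08 to 5.14 for *Dsg1a*, from 3.78 to 3.73 for *Dsp* and from 5.10 to 4.80 for *Perp*. It went from 4.34 to 3.98 for *Pkp1* and from 3.37 to 3.89 for *Dsc3*.

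**Figure D4:**
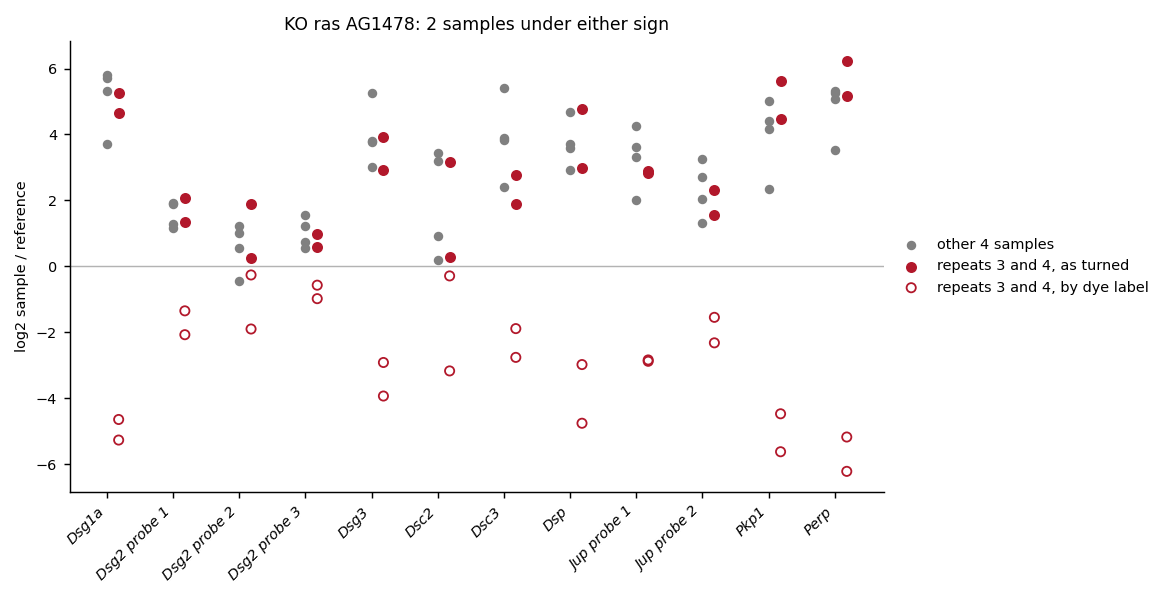
Log2 ratio of sample over reference (vertical axis) of the 12 probes (horizontal axis) in KO ras AG1478, with the other 4 samples in grey and replicates 3 and 4 in red, filled as turned and open by the dye label. As turned the *Perp* values of 5.18 and 6.22 are close to the others, while by label they are at −5.18 and −6.22.

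Other genes of the junctions were taken as lists and read by the probe with most values per gene. The average KO minus WT difference called 8.93% of all probes, and 1 call among 10 or 13 genes is near that share. Among 10 other desmosome and plakin genes, the average KO minus WT difference called 1 higher, *Kazn* (0.77 ± 0.23, limma adjusted p = 0.0219), which encodes kazrin, and 0 lower, with a list median of −0.0038 beside −0.01 over all probes. The other desmoglein 1 copies, *Dsg1b* (−0.37 ± 0.31, 0.529) and *Dsg1c* (0.31 ± 0.26, 0.519), and the upper-layer desmocollin *Dsc1* (0.07 ± 0.54, 0.962) were not called. Of 14 adherens junction genes 3 were higher and 0 lower (*Cdh1*, E-cadherin, at 0.37 ± 0.12; *Zyx* and *Ajuba* at 0.61 ± 0.13 and 0.62 ± 0.20). Of 13 tight junction genes 1 was higher (*Patj*) and 2 were lower, the claudins *Cldn3* (−1.43 ± 0.28, limma adjusted p = 0.000338) and *Cldn7* (−0.91 ± 0.20, 0.00166). Of 4 gap junction genes 0 were called. Of 13 regulators and proteases of desmosomes 1 was higher, *Trp63* (1.40 ± 0.34, 0.00391), the p63 transcription factor of stratified epithelia. In single comparisons, plakophilin 3 (*Pkp3*) was lower with PD153035 in KO ras (−1.79 ± 0.56, 0.0478) and higher with AG1478 than with PD153035 in WT ras (2.18 ± 0.56, 0.0334), the comparisons in which *Jup* probe 1 was called. *Pkp4* was lower with ras in KO cells (−1.23 ± 0.29, 0.0257) and lower with erlotinib than with PD153035 in KO ras (−1.005 ± 0.268, 0.017). *Kazn* was higher in KO than in WT mock cells (2.25 ± 0.58, 0.039), and in WT ras with AG1478 (2.22 ± 0.48, 0.0101) and with erlotinib (1.78 ± 0.48, 0.0291). Erlotinib minus PD153035 in KO ras, which called 5.82% of all probes and 0 members, called 6 of the 14 adherens junction genes, all higher, the 5 of smallest adjusted p being *Cdh1* (1.39 ± 0.27, 0.00111), *Vcl*, *Ctnnd1*, *Zyx* and *Ctnna1*. It called 5 of the 13 regulators and proteases higher, *Prkca* (1.62 ± 0.34, 0.00225), *Src*, *Trp63*, *Adam10* and *Lypd3*. *Cldn3* and *Cldn7* were higher in ras than in mock WT cells under each inhibitor, with *Cldn3* at 2.55 ± 0.60 (AG1478), 3.11 ± 0.60 (erlotinib) and 3.18 ± 0.60 (PD153035). Of the single comparisons named in this paragraph, only AG1478 minus PD153035 in WT ras shares a run. In the others the factor compared and run cannot be told apart. These lists hold further calls in single comparisons that are not named here.

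The probes most like each member over the 13 group means were *Tyrp1*, *Csrp1* and *Zbtb1* for *Dsg1a* (r = 0.92, 0.89 and 0.87), *Il1f6*, *Prom2* and *Kcnn3* for *Dsc2* (0.95, 0.94 and 0.94), *Zfp934*, *Srf* and *Hspd1* for *Dsg3* (0.93, 0.90 and 0.87) and *Gpbar1*, *Slc7a1* and *Zfp84* for *Dsc3* (0.93, 0.93 and 0.92). For *Dsg2* probe 1 they were *Rad50*, *Foxn1* and *Ptpru* (0.89, 0.88 and 0.82), for *Dsp* *Dyrk2*, *Cdk5rap1* and *Zfp281* (0.95, 0.92 and 0.92), for *Jup* probe 1 *Itm2b*, *Ssh3* and *Amer1* (0.93, 0.93 and 0.92), for *Pkp1* *Krt5*, *Col3a1* and *Ccdc39* (0.95, 0.92 and 0.92) and for *Perp* *Prl6a1*, *Gdf9* and *Them4* (0.84, 0.84 and 0.84). Candidates were 1 probe per named gene, without the members. Each r over group means is the highest of many genes at 13 points, and a high value can arise from this choice alone. Over the 62 samples, with arrays shared by both members of a pair, *Dsg1a* with *Tyrp1* (0.89), *Pkp1* with *Krt5* (0.71) and *Dsc3* with *Slc7a1* (0.70) were the pairs at 0.70 or above. The other pairs were lower, down to 0.10 for *Dsg3* with *Hspd1* and 0.07 for *Dsg2* probe 1 with *Ptpru*.

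*Tyrp1*, a melanosome enzyme, was the probe most like *Dsg1a* over the samples too, first of 19385 probes with a value everywhere. Within groups the correlation was 0.87, and the points share arrays and depth of signal. The other *Tyrp1* probes reached 0.32 and 0.50, both *Dct* probes 0.59 and 0.63, and *Tyr* and *Mlana* 0.10 and 0.14. The 3 *Dsg1b* probes lay between −0.24 and 0.22, the 2 *Dsg1c* probes at −0.04 and 0.40, and *Dsc1* at 0.58. After *Tyrp1* the named probes among the first 10 were *Serpinb3a* (0.77) and *Serpinb5* (0.74), both serpins, then *Zbtb1* (0.68), *Eva1a* (0.67), *Zfp655* (0.66), *Rab27b* (0.65) and *Gata3* (0.64). *Tyrp1* itself was 5.53 ± 2.77 (SD, n = 5) in KO ras and 3.42 ± 1.60 (n = 5) in WT ras, where *Dsg1a* was 4.54 ± 1.82 and 2.21 ± 1.02. With AG1478 and erlotinib *Tyrp1* was also higher in KO ras (6.77 and 7.51) than in WT ras (3.57 and 5.73). In mock cells it was lower in KO (5.36 against 6.38), and with PD153035 it was 5.34 against 5.46. *Dsg1a* was higher in KO in both (4.64 against 4.03, and 4.52 against 3.87). The average KO minus WT difference of *Tyrp1* was 1.18 ± 0.56 (SE) and was not called (limma adjusted p = 0.201). The platform table ties the *Dsg1a* probe to a predicted transcript, and what else it may bind was not tested.

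**Figure D5:**
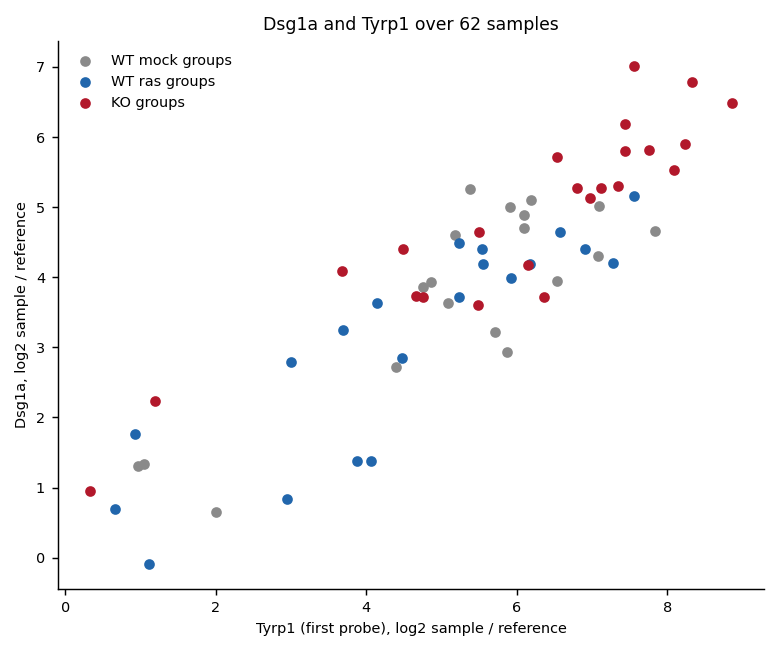
Log2 ratio of sample over reference of *Tyrp1* (horizontal axis, the probe most like *Dsg1a*) and *Dsg1a* (vertical axis) in 62 samples, grey for WT mock, blue for WT ras and red for KO groups. Over all 62 samples the points rise together (r = 0.89), and r was not computed for each colour.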

How the data were processed

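Values are the authors' deposited log2 ratios of 2-colour arrays; base 2 is assumed and the arrays were already centred (medians −0.072 to 0.067). Per the labels' protocols, Trizol RNA was labelled indirectly with Cy3 and Cy5; scanner, background correction and normalization are not given in the sources used here. Ratios were turned to sample over reference, and 2 WT mock arrays of 1 repeat, in opposite dye order, were averaged, leaving 62 samples. A linear model over 13 groups with dye order as covariate was fitted in limma 3.58.1 (lmFit, eBayes; R 4.3.3). A probe was tested where 60% of the samples of each compared group had a value, with Benjamini-Hochberg adjustment over all probes of each of 29 comparisons and a threshold of 0.05. The model was also run on simulated data with independent noise. That simulation held no run effect and no differences in array spread, so it does not bear on either. Runs are stretches of experiment numbers parted by gaps over 100.

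Members and lists were chosen with earlier results of these data known. The F test, the average genotype difference, scaling by spread and the likeness of *Dsg1a* were added after seeing the data. Text names every member, some of the genes called within lists (probe with most values; at most the 5 of smallest adjusted p per list and comparison) and the 3 genes most like each member. Lists without further mention gave, for the average genotype difference, 0 higher and 1 lower of 17 fibroblast, 1 and 0 of 12 leukocyte, 0 and 0 of 9 endothelial and 0 and 2 of 20 reference pool genes. Over all probes this difference called 8.93%. Numbers of arrays limit the precision.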

Additional observations from a re-analysis of the deposited data

Results flagged for a closer look

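Each probe was looked at in each group of 4 to 6 samples, which gave 144 sets that share samples and arrays. Chance gives about 1 in 20 for a single set. In 11 of the 144 sets 1 sample stood far from the rest. For *Dsg2* probe 2 these were KO ras erlotinib replicate 4 at 2.52 (others 1.24 to 1.46) and WT ras replicate 5 at 2.03 (0.495 to 0.694), and for *Dsg2* probe 3 KO ras replicate 4 at 1.53 (0.025 to 0.329). *Dsc2* was low in WT mock replicate 2 at 0.946 (others 3.61 to 3.72) and in WT ras PD153035 replicate 3 at 0.835 (4.06 to 4.91). *Dsc3* was low in WT mock erlotinib replicate 1 at 2.59 (5.21 to 6.22). *Jup* probe 1 was high in WT mock erlotinib replicate 5 at 3.27 (2.06 to 2.38), and *Jup* probe 2 low in WT mock AG1478 replicate 4 at 1.43 (2.43 to 2.81). *Pkp1* was low in KO ras erlotinib replicate 3 at 1.66 (3.71 to 3.94) and in WT ras AG1478 replicate 3 at 2.05 (5.78 to 6.13). *Perp* was low in KO ras PD153035 replicate 4 at 4.31 (5.37 to 5.69).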

How the results depend on the processing

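Counts are of the 12 member probes called, and the causes were not tested. The share of all probes called under each setting is not given here. A high count therefore cannot be read as particular to the members. Small changes of a count that stayed above 0 are not all listed. For the average genotype difference the count ran from 1 to 5 over the settings. Without a dye term, AG1478 minus PD153035 in WT ras gave 0. With forward arrays only, KO minus WT gave 1 in mock and 0 with AG1478, ras in WT with erlotinib 1, and AG1478 minus PD153035 in WT ras 0. With repeat 1 arrays apart, KO minus WT in mock gave 2. With median centring, KO minus WT in ras gave 1. Quantile normalization gave 2 for KO minus WT in mock, 1 in ras, 2 for PD153035 in KO ras, 3 and 1 for ras in WT with erlotinib and PD153035, 2 for AG1478 minus PD153035 in KO ras and 8 for the F test. Scaling to a common spread gave 2 for KO minus WT in mock, 1 with PD153035, 2 for ras in WT with erlotinib, 1 for AG1478 minus PD153035 in KO ras, 0 in WT ras and 7 for the F test. With complete probes, KO minus WT gave 1 in mock and 1 in ras, and AG1478 minus PD153035 in KO ras 1. With only the groups compared, PD153035 in KO ras, KO minus WT with AG1478 and AG1478 minus PD153035 in WT ras gave 0, ras in WT with erlotinib 1, and in KO ras AG1478 minus PD153035 1 and erlotinib minus PD153035 3. Averaged by gene, AG1478 minus PD153035 gave 0 in WT ras and 1 in KO ras, and erlotinib minus PD153035 in KO ras 1. Run as a random block gave 0 for PD153035 in KO ras and for AG1478 minus PD153035 in WT ras. It gave 1 for AG1478 minus PD153035 in KO ras, 3 for the average genotype difference and 1 for the F test. As a fixed block, run gave 1 for KO minus WT with erlotinib, and 0 and 1 for AG1478 minus PD153035 in WT and KO ras. Array weights gave 1 for ras in KO, 2, 1, 1 and 2 for KO minus WT in mock, ras, erlotinib and PD153035, 7 and 4 for erlotinib and PD153035 in KO ras, 2 and 3 for ras in WT with these, 3 and 1 for AG1478 and erlotinib minus PD153035 in WT ras, 1, 3 and 4 for the KO ras pairs and 12 for the F test. The sign by label gave 4 for AG1478 in KO ras, 0 for PD153035, 0 for AG1478 minus PD153035 in WT ras and 1 in KO ras, 5 for AG1478 minus erlotinib in KO ras, 1 for the average genotype difference, 1 for the F test, and turned *Dsg1a* in KO minus WT with AG1478 to −0.43. Without the disputed arrays KO minus WT with AG1478 and AG1478 minus PD153035 in WT ras gave 0 and the F test 1. With no filter and with the dye term by label the counts kept their size.

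In 0 of 28 comparisons did every same-numbered pair correlate above 0.1, so the numbers were not taken to pair samples. With a replicate block KO minus WT with AG1478 gave 0 (*Dsg1a* 2.78, adjusted p = 0.079) and erlotinib minus PD153035 in KO ras 2.

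Leaving out 1 sample at a time gave 0 to 1 for KO minus WT in mock, ras and AG1478, PD153035 in KO ras, ras in WT with erlotinib, AG1478 minus PD153035 in both genotypes and erlotinib minus PD153035 in KO ras, 1 to 5 for the F test and 4 to 4 for the average genotype difference.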
